A study of Mus musculus with 5 samples.

Results

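The ligands and receptors of blood vessel growth were followed across the cell types of the mouse ovary, from 2 to 6 wk of age. The genes were the ligands Vegfa, Vegfc, Angpt1, Angpt2 and Pdgfb and the receptors Flt1, Kdr, Flt4, Tek and Pdgfrb. They were picked by name, 10 of the 31053 genes that each table lists, with earlier results of these data known. The ovaries came from untreated C57BL6/J mice of 2, 3, 4, 5 and 6 wk, with no allele, transgene or agent in any group. They were dissociated with trypsin, live cells were sorted, and 1 library per age was made (10x Genomics, 3′ v3.1 chemistry). The number of animals per library is not given in the sources used here. An age therefore has no replicate, a difference between ages is a difference between 2 libraries, and no p-value is given. Even a value compared between cell types over the 5 libraries could not go below p = 0.0625 in an exact two-sided permutation test.

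Vascular endothelial growth factors are secreted proteins that draw endothelial cells into new vessels. Vegfa acts through the receptors Flt1 and Kdr, and Vegfc acts mainly through Flt4, the receptor best known from lymphatic vessels. Angiopoietins bind the endothelial receptor Tek, where Angpt1 is the classical activator that steadies vessels and Angpt2 a context-dependent ligand that can oppose it. Pdgfb, released by endothelial cells, recruits pericytes, the contractile cells on the vessel wall, through Pdgfrb. In the ovary, the granulosa layer of a follicle has no vessels of its own, while the theca around it is vascularized as the follicle grows.

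The libraries held between 7779 and 11077 cells, with 93438618 to 144609431 unique molecular identifiers (UMIs, which number the RNA molecules captured) and medians of 9056 to 12424 UMIs per cell. Between 18 and 35 cell barcodes were shared by any pair of libraries. The tables of 2, 3 and 4 wk came from Cell Ranger 3.1.0 and those of 5 and 6 wk from Cell Ranger 6.0.1, so that age and software version cannot be told apart across that step. Cells were clustered again without the 10 genes and without the 32 further angiogenesis genes described below, so that their levels did not shape the clusters. Clusters were named from other marker genes, and a name ending in "-like" is a call from those markers. Some granulosa clusters that markers did not name took the name of the study's best matching cluster. Over the 5 libraries there were 17845 granulosa-like, 13448 stromal-like, 4124 smooth muscle-like, 1364 theca-like, 858 pericyte-like, 707 blood endothelial-like, 498 hematopoietic-like, 321 surface epithelial-like and 229 lymphatic endothelial-like cells. Levels are in CPM, which counts the UMIs that a gene had per 1000000 UMIs of the cells of a class in a library. An interval in brackets is an exact Poisson interval, or for a ratio an exact conditional interval, at 95%. These intervals cover counting error only, and a mean ± SD over 5 libraries is a spread across ages.

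The vascular classes were named from the same markers that are summed here, so the sums describe the classes and do not test their names. The 8 markers of blood endothelium, such as Pecam1 and Cdh5, summed to 4841 to 6890 CPM in blood endothelial-like cells and to 364 to 445 CPM in pericyte-like cells. All 4 lymphatic markers (Ccl21a, Lyve1, Prox1 and Mmrn1) had UMIs in the lymphatic endothelial-like cells. Blood endothelial-like cells were few and uneven in depth. There were 117, 68, 99, 265 and 158 of them at 2, 3, 4, 5 and 6 wk, which was 1.24%, 0.735%, 0.894%, 3.41% and 1.49% of the cells, and their median UMIs were 4533, 2217, 3715, 15162 and 9698. Lymphatic endothelial-like cells numbered 47, 35, 52, 81 and 14, so that the 6 wk values of that class rest on 14 cells.

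With the 5 libraries pooled, the receptors Flt1, Kdr and Tek had most of their UMIs in blood endothelial-like cells. The sequences before their start sites are shown because ETS factors, a family that acts at many endothelial genes, bind a GGAA core. The 250 bases before the RefSeq start are given in the direction of the gene (build GRCm38.p6), with each GGAA or its reverse complement TTCC in capitals. The Flt1 stretch lies at chr5:147726012-147726261 on the minus strand, the Kdr stretch at chr5:75978456-75978705 on the minus strand and the Tek stretch at chr4:94739039-94739288 on the plus strand.
Flt1: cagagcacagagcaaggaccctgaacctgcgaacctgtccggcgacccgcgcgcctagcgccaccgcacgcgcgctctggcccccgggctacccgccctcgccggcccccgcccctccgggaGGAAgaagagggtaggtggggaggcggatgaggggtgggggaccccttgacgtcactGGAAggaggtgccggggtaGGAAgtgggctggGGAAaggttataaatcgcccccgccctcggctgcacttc
Kdr: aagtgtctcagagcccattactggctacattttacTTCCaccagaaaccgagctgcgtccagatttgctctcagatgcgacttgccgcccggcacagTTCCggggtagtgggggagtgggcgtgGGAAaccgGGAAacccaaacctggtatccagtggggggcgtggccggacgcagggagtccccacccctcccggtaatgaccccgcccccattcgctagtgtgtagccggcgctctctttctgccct
Tek: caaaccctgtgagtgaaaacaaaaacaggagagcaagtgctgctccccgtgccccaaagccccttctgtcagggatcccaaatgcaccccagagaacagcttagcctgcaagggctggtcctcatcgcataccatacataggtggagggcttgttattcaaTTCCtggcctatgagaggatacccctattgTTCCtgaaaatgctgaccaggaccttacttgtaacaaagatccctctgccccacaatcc
The core occurred 4 times in the Flt1 stretch, 4 times in that of Kdr and 2 times in that of Tek. The letters are short, and at least 1 core lay in 93.5% of the 32841 mouse promoters of this length, at least 2 in 76.8% and at least 4 in 33.4%, so the matches are a description only. The GC box GGGCGG, read on both strands, occurred 3 times before Flt1, 2 times before Kdr and 0 times before Tek, and was present in 32.7% of promoters. The G and C content was 70.4%, 61.6% and 51.2%. RefSeq promoters were read for 6 of the 10 genes, and whether each of the others has one was not tested.

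Each gene had a class of its own or a broad field, as the plot of levels by class shows. Of all UMIs in the 5 libraries, blood endothelial-like cells held 95.7% of those of Flt1, 66.5% of Kdr, 63.2% of Tek, 20.8% of Pdgfb and 19.6% of Flt4. A pooled share need not hold in each library. Kdr had 2971 UMIs in blood endothelial-like cells at 5 wk, and 417, 179, 328 and 1134 at 2, 3, 4 and 6 wk. At 2 wk it also had 230 UMIs in lymphatic endothelial-like and 133 in surface epithelial-like cells. Lymphatic endothelial-like cells held 68.1% of the Flt4 UMIs. Stromal-like cells, which are far more numerous, held 63.0% of Angpt1, 63.5% of Pdgfrb and 57.1% of Vegfc, and granulosa-like cells held 63.3% of Pdgfb, 44.2% of Vegfa and 37.8% of Angpt2. A level in the whole ovary moves with the share of each cell type. Whole-ovary Flt1 was 5.18, 3.16, 3.58, 43.9 and 8.66 CPM at 2, 3, 4, 5 and 6 wk, whereas within blood endothelial-like cells it ran from 621 to 915 CPM. The high value at 5 wk fell in the library with the largest share of blood endothelial-like cells and the deepest ones.

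**Figure D1:**
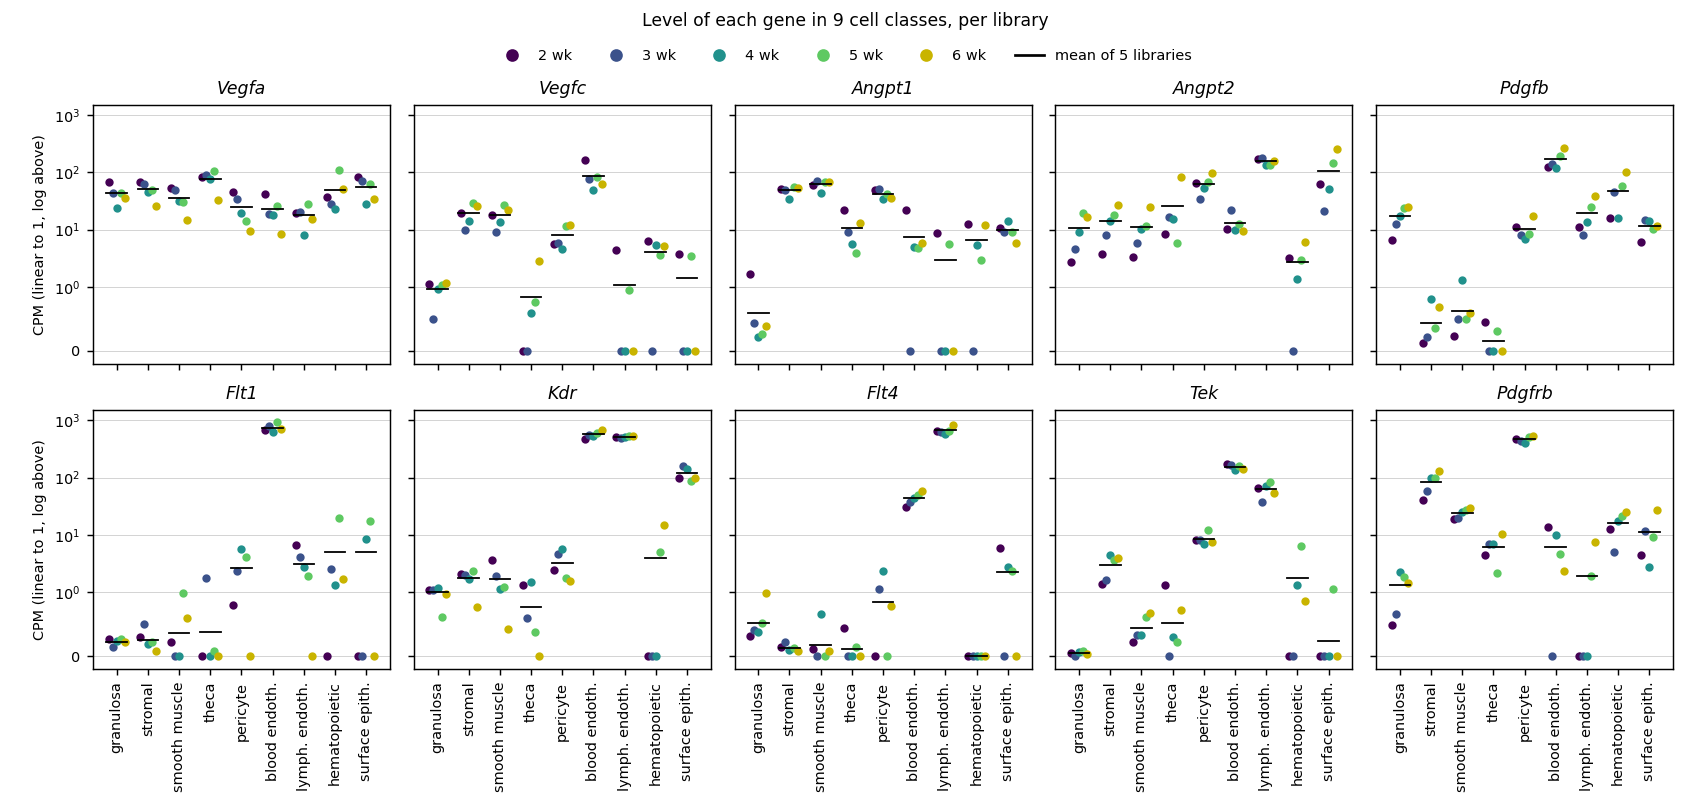
Level of each of the 10 genes in 9 cell classes, in CPM on an axis that is linear up to 1 CPM and logarithmic above. Each point is 1 library, the color gives its age and the bar is the mean over the 5 libraries. Flt1, Kdr, Flt4 and Tek stand highest in blood or lymphatic endothelial-like cells and Pdgfrb in pericyte-like cells, while Vegfa is spread over all 9 classes.

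Vegfa, the main growth signal for blood vessels (chromosome 17, 46016993 to 46032369, minus strand), had no single source. Its mean level was 77.0 ± 27.3 CPM in theca-like, 55.9 ± 23.8 in surface epithelial-like, 50.2 ± 16.1 in stromal-like, 49.9 ± 35.4 in hematopoietic-like and 42.9 ± 15.8 in granulosa-like cells (SD, n = 5 libraries). The lowest means were in pericyte-like (24.4 ± 14.5), blood endothelial-like (22.5 ± 12.3) and lymphatic endothelial-like cells (18.4 ± 7.18). Between neighbors in this order the ranges of the libraries overlapped at each step. In theca-like cells Vegfa was 82.2, 87.9, 75.8, 106 and 32.6 CPM at 2, 3, 4, 5 and 6 wk, and in stromal-like cells 67.2, 62.5, 46.2, 48.8 and 26.2 CPM. The theca-like value was the higher one in 5 of 5 libraries, by 1.22 to 2.18 times, but stayed under 2-fold in 4 of them. When each cell was thinned to 3000 UMIs, 21.8% of theca-like and 4.17% of lymphatic endothelial-like cells had a Vegfa UMI (64.7% and 14.8% unthinned, median depths 16772 and 7871 UMIs).

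Among granulosa-like cells, Vegfa was lower in the secondary than in the primary group and lower again in the antral group. It was 74.9, 69.0, 46.8, 75.4 and 47.9 CPM at 2, 3, 4, 5 and 6 wk in the primary group, 68.9, 44.1, 36.6, 46.7 and 40.8 in the secondary group and 57.2, 28.8, 16.9, 38.9 and 35.9 in the antral group. In each library the secondary group was below the primary group and the antral group below the secondary group. The remodeling group was lower again, at 43.7, 13.2, 14, 36.9 and 26.7 CPM. It is named after clusters that the study proposes to come from follicles that are breaking down, and no sequenced cell was traced to one. The ratio of antral to secondary ran from 0.462 to 0.880, with an upper limit under 1 in each library, and that of remodeling to antral from 0.459 to 0.948. For the latter pair the intervals of the levels overlapped at 2, 4 and 5 wk. They were 25.9 to 69.1 CPM in remodeling and 51.9 to 63.0 CPM in antral cells at 2 wk. At 5 wk they were 33.4 to 40.6 and 35.4 to 42.7 CPM. None of these steps passed 2-fold in all 5 libraries. The primordial group, at 54.3, 26.6, 21.5, 26.7 and 26.4 CPM, did not sit at the top of the order. No cluster of the secondary group was named by markers, and each took the name of its best match in the study (correlation 0.934 to 0.966). In the antral group this held for all but the cluster led by Inhba, Cyp11a1 and Cyp19a1, with 1218 of 4587 cells. For the largest antral cluster, led by Cda and Vpreb3 with 2147 cells, the best marker list was that of remodeling cells, below the limit for a name. Another antral cluster, with 617 cells, was led by cell division genes such as Ccnb2 and Cenpa. For the secondary cluster led by Cdc6 and E2f1, with 1504 cells, the best list was the mitotic one. With all variable genes in the clustering, the clusters led by Igfbp5 and by Calb1, here secondary, were named primary. The study scores its antral clusters as antral at 2 wk too, although its own follicle counts list no antral follicles at that age. At 2 wk the antral group is therefore a group of clusters, not a follicle stage that was seen.

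Vegfc (chromosome 8, 54077606 to 54187096, plus strand), the ligand for lymphatic growth, was found in blood endothelial-like, stromal-like and smooth muscle-like cells. It was 161, 75.1, 49.2, 84.2 and 62.7 CPM in blood endothelial-like cells at 2, 3, 4, 5 and 6 wk and 19.4, 9.81, 14.3, 28.9 and 25.8 CPM in stromal-like cells. Smooth muscle-like cells were close to the stromal-like ones in each library, at 18.4, 9.03, 13.4, 27.4 and 22.1 CPM, and held 14.9% of the Vegfc UMIs. The lowest blood endothelial value was above the highest stromal value, and from 2 wk to 6 wk the blood endothelial level changed by a factor of 0.390 (0.300 to 0.506). Within the stroma, the Cxcl12-expressing type had 41.9, 19.1, 28.0, 57.5 and 56.7 CPM and the Col14a1-expressing type 39.3, 24.9, 51.0, 37.7 and 63.3 CPM. The early theca-like group lay far lower, between 2.31 and 10.0 CPM. In theca-like cells there were 0 UMIs at 2 and 3 wk, with upper limits of 1.66 and 1.11 CPM, and 2, 10 and 8 UMIs at the later ages.

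Flt1 (chromosome 5, 147561604 to 147726011, minus strand), a high-affinity receptor for Vegfa that also acts as a sink for it, was the most restricted of the 10 genes. In blood endothelial-like cells it was 679, 807, 621, 915 and 694 CPM at 2, 3, 4, 5 and 6 wk. The highest value in any other class and library was 19.7 CPM, in hematopoietic-like cells at 5 wk, followed by 17.4 CPM in surface epithelial-like cells at 5 wk. At 3000 UMIs per cell, 82.9% of blood endothelial-like cells and 0.0743% of granulosa-like cells had a Flt1 UMI, and 186 of the blood endothelial-like cells were too shallow to be counted. Unthinned, the shares were 90.5% and 0.308% at median depths of 8954 and 14788 UMIs.

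Kdr (chromosome 5, 75932827 to 75978458, minus strand), the principal signaling receptor for Vegfa, was shared by both kinds of endothelium. It was 479, 560, 538, 590 and 678 CPM in blood endothelial-like cells and 509, 497, 521, 538 and 525 CPM in lymphatic endothelial-like cells. The ratio of the former to the latter ran from 0.942 to 1.29 over the libraries. From 2 wk to 6 wk the blood endothelial level changed by a factor of 1.41 (1.26 to 1.59).

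Kdr was also present outside the endothelium. Surface epithelial-like cells had 100, 161, 144, 87 and 100 CPM of Kdr at 2, 3, 4, 5 and 6 wk, below both endothelial classes and above all other classes in each library. In those cells Flt1 had 0 UMIs at 2, 3 and 6 wk, 3 UMIs (8.46 CPM) at 4 wk and 15 UMIs (17.4 CPM, 9.74 to 28.7) at 5 wk, and Tek had 1 UMI in all. The blood endothelial markers summed to 191 to 313 CPM there, with Plvap at 0, and their part in the Kdr level was not tested. Thinned to 3000 UMIs, 30.3% of surface epithelial-like cells had a Kdr UMI, against 0.343% of granulosa-like cells. The Col14a1-expressing fibroblasts had 20.2, 24.9, 12.8, 30.3 and 13.8 CPM of Kdr, each above the 3.75 CPM that was the highest value in any other mesenchymal group. Granulosa-like cells had 0.613 to 1.19 CPM of Kdr. Within them the primary group had 1.40, 3.07, 10.8, 3.06 and 3.51 CPM, resting on 10 to 40 UMIs per library, and the primordial group 3.31, 1.93, 6.84, 0 and 7.43 CPM, on 0 to 14 UMIs.

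Flt4 (chromosome 11, 49609263 to 49652739, plus strand), the receptor for Vegfc, was 650, 620, 587, 642 and 841 CPM in lymphatic endothelial-like cells and 31.0, 37.5, 44.3, 49.9 and 58.6 CPM in blood endothelial-like cells. The ratio of blood to lymphatic endothelium ran from 0.0477 to 0.0777. The blood endothelial values climbed in the order of age, but the counts behind them, 27, 12, 27, 251 and 98 UMIs, were small at the early ages. Elsewhere the highest value was 6.03 CPM, in surface epithelial-like cells at 2 wk.

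Tek (chromosome 4, 94739289 to 94874976, plus strand), the angiopoietin receptor, was 173, 166, 134, 163 and 140 CPM in blood endothelial-like cells and 66.4, 37.0, 71.3, 84.2 and 54.0 CPM in lymphatic endothelial-like cells. The blood endothelial value was the higher in each library, by 1.88 to 4.48 times. Pericyte-like cells had 8.08, 8.17, 7, 12.4 and 7.53 CPM, a low level that was above those of the stromal-like, smooth muscle-like, granulosa-like and theca-like cells in each library. In stromal-like cells Tek went from 1.42 CPM at 2 wk to 3.71 CPM at 5 wk, a ratio of 2.61 (1.86 to 3.69), on 61 and 84 UMIs.

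The angiopoietins overlapped in pericyte-like and stromal-like cells. Angpt1 (chromosome 15, 42424723 to 42676977, minus strand) was highest in mesenchymal classes. It was 59.6, 69.4, 43.4, 67.9 and 66.4 CPM in smooth muscle-like cells at 2, 3, 4, 5 and 6 wk, 52.0, 48.6, 34.8, 54.5 and 53.2 in stromal-like cells and 48.5, 50.2, 33.8, 41.9 and 36.1 in pericyte-like cells. The Cxcl12-expressing fibroblasts were highest, at 122, 127, 66.9, 108 and 100 CPM. Theca-like cells had 22, 9.06, 5.67, 3.88 and 13 CPM, each below the stromal-like value of the same library, and granulosa-like cells had 0.213 to 1.66 CPM.

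Angpt2 (chromosome 8, 18690263 to 18741562, minus strand) was highest on average in lymphatic endothelial-like cells, at 168, 181, 132, 136 and 154 CPM. Pericyte-like cells had 65.5, 33.8, 52.5, 67.9 and 98.3 CPM and blood endothelial-like cells 10.3, 21.9, 9.84, 12.7 and 9.56 CPM. The pericyte-like value exceeded the blood endothelial one in 5 of 5 libraries, by 1.55 to 10.3 times, and passed 2-fold in all but the 3 wk library. Surface epithelial-like cells ranged most, from 20.9 CPM at 3 wk to 251 CPM at 6 wk.

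Among the granulosa groups, Angpt2 was higher in the remodeling group than in the antral group. It was 14.6, 19.1, 23.6, 60.8 and 65.4 CPM in remodeling cells at 2, 3, 4, 5 and 6 wk and 1.37, 2.65, 4.29, 8.11 and 8.25 CPM in antral cells. The ratio was 10.6 (3.17 to 32.2), 7.21 (3.37 to 14.7), 5.51 (4.37 to 7), 7.49 (6.02 to 9.41) and 7.93 (6.74 to 9.38), a mean of 2.92 ± 0.34 on the log2 scale. The ranges of the 2 groups did not overlap. The primordial group came closest to the remodeling cells, at 5.43, 15, 16.6, 25.4 and 19 CPM, and at 2, 3 and 4 wk the intervals of both overlapped. They were 3.44 to 8.15 against 5.35 to 31.7 CPM at 2 wk, the latter on 6 UMIs. At 3 and 4 wk they were 10.2 to 21.3 against 10.2 to 32.7 CPM and 9.68 to 26.6 against 21.2 to 26.2 CPM. The remodeling cells fell into 2 clusters. The cluster led by S100a6, Tinagl1 and Rrad had 14.6, 18.4, 23.6, 68.3 and 73.8 CPM at 2, 3, 4, 5 and 6 wk, and the cluster led by Lox, Dpp4 and Ghr, with 0 cells at 2 wk and 18 at 3 wk, had 21.7, 23.6, 44.9 and 51.1 CPM from 3 wk on. Thinned to 3000 UMIs, 11.9% of remodeling, 1.66% of antral and 1.02% of secondary cells had an Angpt2 UMI (26.5%, 6.76% and 4.73% unthinned). Markers of other types were also higher in the remodeling group. The 4 stromal markers summed to 24.6 to 92.3 CPM there and 6.89 to 21.4 CPM in antral cells, the 4 smooth muscle markers to 58.3 to 233 and 17.6 to 28.6 CPM, and the 7 pericyte markers to 4.21 to 7.28 and 2.91 to 3.98 CPM. All markers of the 3 lists had UMIs in the remodeling group, and their part in the result was not tested. Angpt2 itself was 3.81 to 27.4 CPM in stromal-like, 3.40 to 24.7 CPM in smooth muscle-like and 33.8 to 98.3 CPM in pericyte-like cells.

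**Figure D2:**
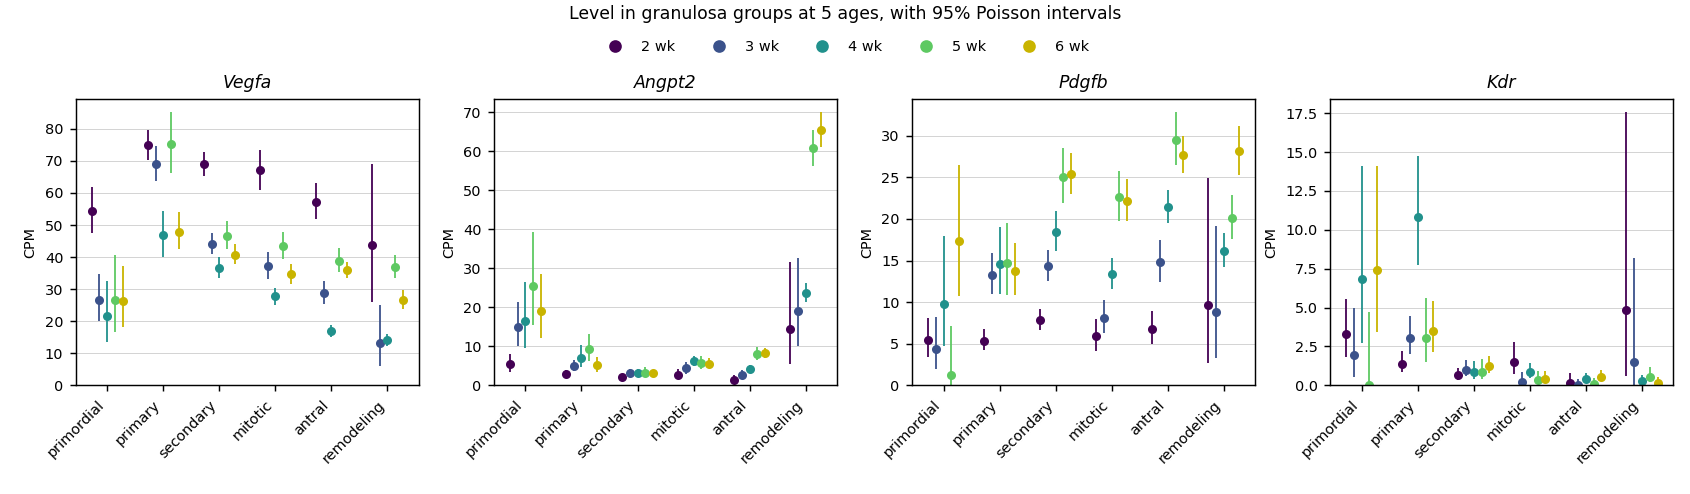
Levels of Vegfa, Angpt2, Pdgfb and Kdr in the granulosa groups, in CPM. Each point is 1 library, the color gives its age and the vertical line is its exact Poisson 95% interval. Vegfa is lower in the remodeling than in the primary group, though the remodeling and antral intervals overlap at 2, 4 and 5 wk. Angpt2 is 14.6 to 65.4 CPM in the remodeling group and 1.37 to 8.25 CPM in the antral group.

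Angpt2 also had the largest ratio of 5 wk to 2 wk of the 10 genes in granulosa-like and in stromal-like cells. The mix of granulosa stages changed with age, and its part in the granulosa-like ratio was not tested. In stromal-like cells Angpt2 was 3.81, 8.03, 14.1, 17.7 and 27.4 CPM at 2, 3, 4, 5 and 6 wk, and the early theca-like group went from 2.54 to 45.1 CPM. The 6 wk level over the 2 wk level was 7.19 in stromal-like cells and 17.7 (11.1 to 29.9) in the early theca-like group. The theca-like class did not follow this course. Its values were 8.53, 16.3, 15.5, 5.94 and 84.1 CPM, lowest at 5 wk and highest at 6 wk, and 2 clusters of late theca-like cells, one led by Cyp11a1 and Serpina5 and the other by Cpa1 and Aldh1a7, had 67.1 and 98.8 CPM at 6 wk. The median share of mitochondrial UMIs in theca-like cells was 9.43% at 5 wk and 3.89% to 5.22% at the other ages, and whether it bears on the 5 wk value was not tested.

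Seen as a share of both angiopoietins, Angpt2 made up 6.83% (5.85 to 7.91), 14.2%, 28.8%, 24.5% and 34.0% (32.3 to 35.8) of the UMIs of Angpt1 and Angpt2 in stromal-like cells at 2, 3, 4, 5 and 6 wk. In the theca-like class it was 27.9%, 64.3%, 73.2%, 60.5% and 86.6%. In the antral group it was 16.7% (8.29 to 28.5) at 2 wk, where Angpt1 was 6.86 CPM. It was 72.7%, 96.8%, 97.9% and 96.7% afterwards, where Angpt1 was 0.140 to 0.993 CPM. The study's follicle counts list no antral follicles at 2 wk, so the follicle stage of those cells is uncertain. In pericyte-like cells the share was 57.4%, 40.3%, 60.8%, 61.8% and 73.2%. The brackets are exact binomial (Clopper-Pearson) intervals.

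**Figure D3:**
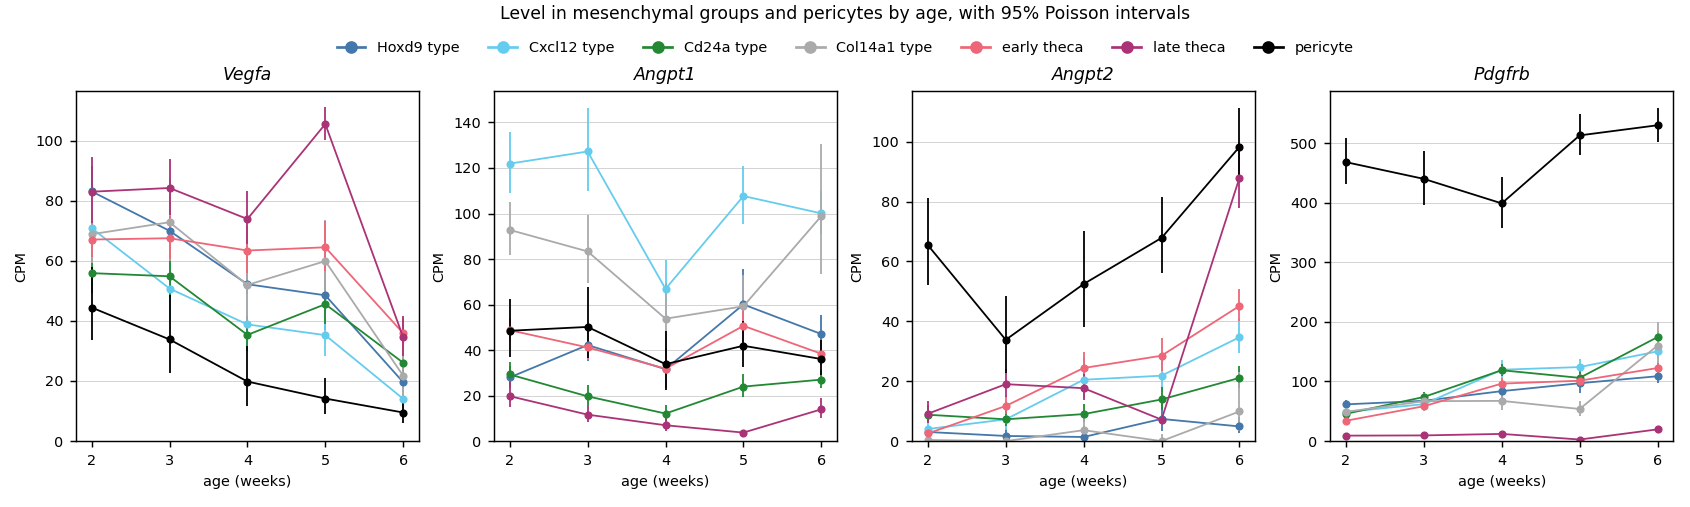
Levels of Vegfa, Angpt1, Angpt2 and Pdgfrb against age in the mesenchymal groups and in pericyte-like cells, in CPM. Each line joins the 5 libraries of a group, with 1 library per age, and the vertical lines are exact Poisson 95% intervals. Angpt2 climbs from 2.54 CPM at 2 wk to 45.1 CPM at 6 wk in the early theca-like group and stays under 10 CPM in the Hoxd9-expressing and Col14a1-expressing groups.

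Pdgfb (chromosome 15, 79995874 to 80014977, minus strand), the pericyte-recruiting ligand, was highest in blood endothelial-like cells, at 124, 141, 118, 193 and 270 CPM at 2, 3, 4, 5 and 6 wk. Its 6 wk level divided by its 2 wk level gave 2.18 (1.76 to 2.71). Hematopoietic-like cells had 15.9, 45.5, 16.3, 57.7 and 99.7 CPM.

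Granulosa-like cells had the larger part of the Pdgfb UMIs, at 6.67, 12.6, 17.3, 23.4 and 24.8 CPM. Stromal-like cells had 0.116 to 0.807 CPM and theca-like cells 5 UMIs in all, and the ratio of granulosa-like to stromal-like cells ran from 21.5 to 66.4. Thinned to 3000 UMIs, 4.85% of granulosa-like and 0.161% of stromal-like cells had a Pdgfb UMI (18.7% and 0.372% unthinned), as against 36.7% of blood endothelial-like cells. In granulosa-like cells the ratio of 5 wk to 2 wk was 3.51 (3.11 to 3.98). The mix of stages also changed with age, and its part in this ratio was not tested. The secondary group had 7.87, 14.3, 18.5, 25.0 and 25.4 CPM and the antral group 6.72, 14.8, 21.4, 29.5 and 27.7 CPM. The primary group, at 5.37, 13.3, 14.6, 14.7 and 13.7 CPM, stayed level after 3 wk, and the primordial group had 5.43, 4.35, 9.77, 1.27 and 17.3 CPM on 1 to 23 UMIs. Within the antral group, the cluster led by Cda and Vpreb3 had 10.9, 23.2, 26.5, 39.5 and 48.6 CPM and the cluster led by Inhba, Cyp11a1 and Cyp19a1 4.90, 6.59, 12.3, 7.52 and 12 CPM, the lower of the 2 in each library.

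Pdgfrb (chromosome 18, 61045150 to 61085061, plus strand), the receptor for Pdgfb, was 468, 440, 399, 513 and 530 CPM in pericyte-like cells. Stromal-like cells came next, at 41.2, 59.6, 97.6, 98.3 and 132 CPM, so that the lowest pericyte value was far above the highest stromal one. The stromal values climbed in the order of age, with a ratio of 6 wk to 2 wk of 3.20 (3.03 to 3.38), while the pericyte level ended at 530 CPM. Thinned to 3000 UMIs, 68.5% of pericyte-like and 20.8% of stromal-like cells had a Pdgfrb UMI, against 0.538% of granulosa-like cells. In theca-like cells Pdgfrb was 4.49, 6.95, 6.86, 2.21 and 10.5 CPM. The remodeling group had 2.43, 1.47, 5.53, 3.70 and 3.12 CPM and the antral group 0.412 to 1.40 CPM, but at 2 and 3 wk the former rested on 1 UMI each. Whether the higher stromal and pericyte markers of the remodeling group bear on this was not tested.

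In all, 6 comparisons between classes were read for all genes. A gene was counted as past 2-fold when the ratio of CPM was at least 2, or at most 0.5, in the same direction in all 5 libraries, with at least 20 UMIs summed. A group with 0 UMIs was set to the level of 3 UMIs. The members' counts are read against the share of all tested genes that met the same rule.

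Pericyte-like against blood endothelial-like cells set the 10 genes furthest apart, with 8 of 10 past 2-fold beside 9.95% of 12734 genes. Angpt1 and Pdgfrb were higher in pericyte-like cells, and Vegfc, Flt1, Kdr, Flt4, Tek and Pdgfb were lower. The Pdgfb ratio ran from 0.0429 to 0.0912. Without the 3 wk library Angpt2 was past as well, and 9 of 10 genes were. Blood against lymphatic endothelial-like cells had 5 of 10 past 2-fold beside 4.35% of 11914 genes, with Vegfc, Flt1 and Pdgfb higher in blood endothelium and Flt4 and Angpt2 higher in lymphatic endothelium. The Angpt2 ratio ran from 0.0615 to 0.121. Kdr and Tek did not pass.

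Granulosa-like against stromal-like cells had 5 of 10 past 2-fold beside 19.6% of 17781 genes. Pdgfb was higher in granulosa-like cells, with a mean of 5.47 ± 0.67 on the log2 scale, and Vegfc (−4.29 ± 0.33), Angpt1 (−6.79 ± 1.07), Tek and Pdgfrb (−6.09 ± 0.49) were lower. Theca-like against stromal-like cells had 3 of 10 past 2-fold beside 9.67% of 16015 genes, all lower in theca-like cells. They were Vegfc, Angpt1 (−2.42 ± 0.94) and Pdgfrb (−3.85 ± 0.96).

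Between granulosa stages fewer genes moved. Of 9 genes with enough UMIs, 1 was past 2-fold in the antral against the secondary group, beside 1.84% of 15179 genes. It was Kdr, lower in antral cells on 1, 0, 9, 1 and 12 UMIs, and at 2 and 4 wk its interval reached above 1. In the remodeling against the antral group 3 of 9 were past 2-fold beside 3.14% of 14819 genes, namely Angpt2, Pdgfrb and Vegfc, all higher in remodeling cells. The stromal, smooth muscle and pericyte markers that were higher there too were not tested for their part in these calls. Vegfc had 0 UMIs in the 3 wk remodeling cells and was counted there only through the level set for 0. Without such cases 2 of 9 remained, beside 2.14% of genes. The median log2 ratio of the members was 1.48 in this comparison, as against 0.17 over all tested genes. It includes genes with 0 UMIs set to the floor, such as Flt1 in remodeling cells at 2 and 3 wk. Kdr had 2, 1, 4, 6 and 2 UMIs in remodeling cells and 1, 0, 9, 1 and 12 in antral cells. Its level was lower in remodeling cells at 4 and 6 wk and higher at 2, 3 and 5 wk. The median is therefore not read as a shift of the set. In both alternative clusterings, of Angpt2, Pdgfrb and Vegfc only Angpt2 stayed past 2-fold. With all variable genes, however, 27 of the members and further genes helped to shape the clusters. A remodeling cluster there had Angpt2 among its leading genes, so that clustering is no independent check of Angpt2.

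**Figure D4:**
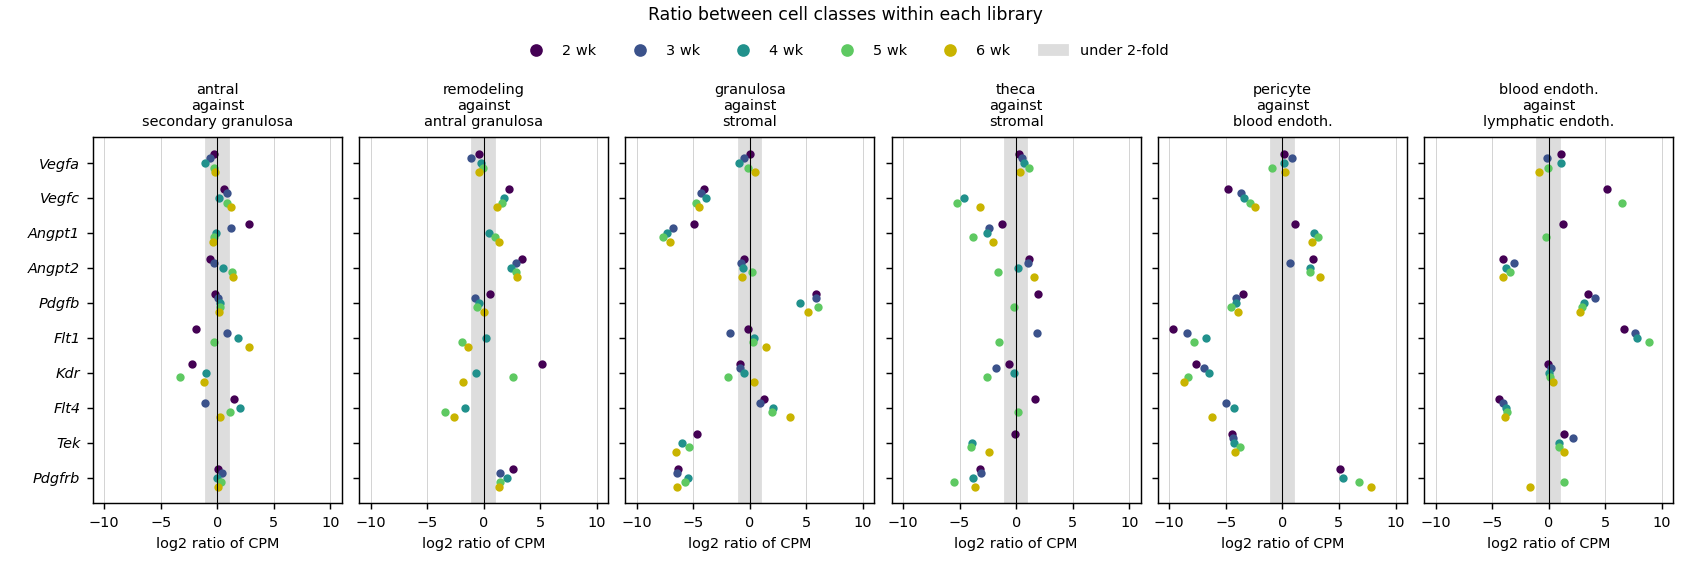
Ratio of CPM between 2 classes for each gene, on a log2 axis, for the 6 comparisons. Each point is 1 library, and libraries with 0 UMIs in either group and genes with too few UMIs are not drawn. The grey band covers ratios under 2-fold, and all points beyond it on 1 side mark a gene counted as past, such as Angpt2 at 5.51 to 10.6 times in the remodeling over the antral group.

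The 32 further genes of the pathway, listed with earlier results known, gave context. In pericyte-like against blood endothelial-like cells, 12 of 31 were past 2-fold, beside the 9.95% of all tested genes. Higher in pericyte-like cells were Pgf and Pdgfa, both growth factors, and Ndufa4l2, a mitochondrial protein induced by low oxygen, at 858 against 4.36 CPM. The 9 that were lower included Ptprb, the endothelial phosphatase that restrains Tek, at 1.11 against 681 CPM, and the Tek partner Tie1, the tip cell genes Apln, Esm1 and Dll4, and Aplnr. In blood against lymphatic endothelial-like cells, 10 of 29 were past 2-fold, beside 4.35%. The co-receptors split by vessel type, with Nrp1 at 497 against 23.7 CPM and Nrp2 at 157 against 769 CPM.

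In the remodeling against the antral group, 6 of 27 of these genes were past 2-fold, beside 3.14% of all tested genes, and all 6 were higher in remodeling cells. Ndrg1, a hypoxia-response gene, was 28.3 against 2.66 CPM, with ratios of 7.33 to 17.7. The secreted inhibitors of vessel growth Thbs1 (563 against 173 CPM) and Sparc (340 against 79.2 CPM), the ligand Pdgfd (18 against 5.33 CPM) and Nrp1 (6.01 against 0.658 CPM) were higher too. Stromal, smooth muscle and pericyte markers were also higher in the remodeling group, and their part in these levels was not tested. Vash1, an inhibitor made by endothelial cells, was counted only through the level set for 0 UMIs. In antral against secondary cells 1 of 28 was past 2-fold, beside 1.84%. It was the inhibitor Serpinf1, at 31.2 against 86.5 CPM. In granulosa-like against stromal-like cells, where 19.6% of all tested genes were past 2-fold, 2 of 32 were higher, Pdgfc (36.5 against 4.66 CPM) and Bnip3 (52.9 against 13.5 CPM), and 13 were lower, among them Pdgfra at 2.45 against 192 CPM. In theca-like against stromal-like cells 0 of 32 were higher and 7 were lower, beside 9.67% of all tested genes past 2-fold. These 7 were Angpt4, Pdgfra, Thbs1, Thbs2, Sparc, Adamts1 and Ndufa4l2.

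For age, the 5 wk library was set against the 2 wk library within a class, and a gene was past when the ratio was at least 2 or at most 0.5 with at least 20 UMIs in both together. All age ratios share the 2 wk library. In granulosa-like cells 4 of 9 genes were past, beside 16.1% of 14763 genes, with Angpt2 at 7.35 (6.15 to 8.84), Pdgfb at 3.51 (3.11 to 3.98) and Pdgfrb at 3.8 (2.43 to 6.14) times the 2 wk level and Angpt1 lower. The remodeling group grew from 45 cells at 2 wk to 722 at 5 wk. It held 6 of the 141 Angpt2 UMIs of granulosa-like cells at 2 wk and 674 of the 902 at 5 wk. For Pdgfrb it held 1 of 26 and 41 of 86 UMIs. Within the secondary group Angpt2 was 2.09 CPM at 2 wk and 3.25 CPM at 5 wk, and within the antral group 1.37 and 8.11 CPM. The part of the stage mix in these ratios was not tested. In stromal-like cells 3 of 7 were past, beside 10.3% of 14374 genes, with Angpt2 at 4.65 (3.87 to 5.61), Pdgfrb at 2.39 (2.24 to 2.54) and Tek at 2.61 (1.86 to 3.69) times. Among these genes past 2-fold, Angpt1 in granulosa-like cells was the one that was lower at 5 wk, at 0.263 against 1.66 CPM. Vegfa was lower as well without passing 2-fold, at 43.3 against 67.3 CPM in granulosa-like and 48.8 against 67.2 CPM in stromal-like cells. With the 3 wk library in place of 2 wk, Angpt2 was still past in both classes, while Pdgfb and Angpt1 in granulosa-like cells and Pdgfrb in stromal-like cells were not.

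In theca-like cells 2 of 4 genes were past, beside 20.6% of 11710 genes, the highest background of the 5 classes. Both Angpt1 and Pdgfrb were lower, but Pdgfrb rested on 10 and 29 UMIs at 2 and 5 wk, and the intervals of its levels overlapped. In pericyte-like cells 2 of 7 were past, beside 9.39% of 9535 genes. Vegfa was at 0.320 times its 2 wk level, and Vegfc was at 2.09 (0.847 to 5.84) times, an interval that includes 1. In blood endothelial-like cells 2 of 10 were past, beside 12.8% of 10781 genes. These were Angpt1 and Pdgfrb, on 19 and 24 UMIs and on 12 and 24 UMIs at 2 and 5 wk, and both genes were highest in pericyte-like or other mesenchymal classes.

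Vegfa ended low at 6 wk in most mesenchymal classes. At 6 wk over 2 wk it was 0.390 (0.362 to 0.420) in stromal-like, 0.397 (0.305 to 0.514) in theca-like and 0.214 (0.127 to 0.351) in pericyte-like cells. In pericyte-like cells Vegfa was 44.4, 33.8, 19.8, 14.2 and 9.51 CPM, lower at each later age, on 55, 29, 17, 24 and 24 UMIs. The hypoxia-response gene Egln3 in stromal-like cells was 0.658, 0.324, 0.194 and 0.291 times its 2 wk level at 3, 4, 5 and 6 wk, and Slc2a1, the glucose transporter, 1.28, 0.864, 0.982 and 0.468 times. Both were picked from the further genes, and a link with Vegfa was not tested. In granulosa-like cells, where Vegfa was also lower at 6 wk, the low-oxygen genes Ndufa4l2 and Ndrg1 were higher than at 2 wk. The ratio of Vegfa at 6 wk over 2 wk was 0.535 (0.509 to 0.563) in granulosa-like cells and 0.535 (0.455 to 0.629) in the early theca-like group. Among granulosa groups this Vegfa ratio was 0.486 in the primordial, 0.640 in the primary, 0.592 in the secondary, 0.517 in the mitotic, 0.627 in the antral and 0.610 in the remodeling group.

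The genes whose levels ran most like each member were found over 46 points, each a class in a library with at least 30 cells, among 13190 genes with at least 500 UMIs. Points of a library share its depth, and the correlations (Pearson's r) are a description. Flt1 ran most like Fam167b and Ly6c1 (r = 0.94 for both), Kdr like Sema3f (0.95), Flt4 like Spns2 (0.94) and Tek like Adcy4 (0.95). Angpt1 ran most like the growth factor gene Fgf2 (0.91) and Pdgfrb like Ntrk2 (0.88). Pdgfb ran most like Ehd4 (0.87), Vegfc like Vwa1 (0.81), Angpt2 like Daam1 (0.76) and Vegfa like Gas6 (0.75), so that the broadly expressed ligands had the weakest nearest matches.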

How the data were processed

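Per the file headers and the study's methods, the authors aligned the reads to the mouse genome (mm10, GRCm38) with Cell Ranger, 3.1.0 for 2, 3 and 4 wk and 6.0.1 for 5 and 6 wk, and deposited the filtered UMI counts of each library without normalization. The submitters' processing notes name Cell Ranger 3.1.0 and Seurat 4.1.0. In the 3′ chemistry a molecule gives a single tag, whatever the length of its gene.

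All 48163 deposited cells were clustered with the study's workflow in Seurat 5.3.0 under R 4.3.3 (2000 variable genes, anchor integration, 30 of 50 principal components, 20 neighbors, resolution 1, seed 1). The 10 genes and 32 further genes were left out of the variable genes. Granulosa-like and mesenchymal cells were clustered again. A cluster was named from at least 3 detected markers, and granulosa clusters that no marker list named took the group of the study's cluster with which their correlation was highest, where it reached 0.7. Clusters of under 30 cells, of shallow cells without markers, of many doublets or of 1 library stayed unnamed, under limits that were chosen with the clusters in view. Per library, Scrublet in scanpy 1.11.5 called 162 to 555 cells doublets, and these were kept except in an alternative. The values that rest on rebuilt names may differ from the study's own.

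UMIs were summed per class and library and scaled to CPM, with Python 3.11.15, numpy 2.4.6, pandas 2.3.3 and scipy 1.17.1. A count of 0 was set to a floor of 3 counts in ratios. No test was run, since cells are not replicates and each age has 1 library. Intervals were checked on Poisson counts simulated for 31053 genes, with class ratios taken on counts summed over the libraries. They covered the true ratio in 95.2% to 96.4% of the genes with enough UMIs. Coverage near 95% follows from the Poisson draw, which holds no further spread between cells or animals. The genes named are the 10 members, the 32 further genes and the 3 most alike genes of each member, found over classes of at least 30 cells. The subclusters and marker sums named beside results were picked after their values were seen. The members, lists and tests were chosen with earlier results of these data known. Alternatives were the full set of variable genes, leaving out doublets, stricter cells (at least 1000 genes and under 10% mitochondrial UMIs), resolution 0.6, size factors by the median of ratios, the mean CPM of each cell, a fold of 1.5, other minimums of UMIs, another early age and leaving out each library.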

Additional observations from a re-analysis of the deposited data

Results flagged for a closer look

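The ratios of Pdgfrb with age lay on opposite sides of 1 in different classes, on few UMIs in those where it was lower. The ratio of its level at 5 wk to that at 2 wk was 3.8 in granulosa-like cells and 2.39 in stromal-like cells, but 0.492 in theca-like cells and 0.346 in blood endothelial-like cells. The difference between the classes was not tested, because each age has 1 library. The mix of granulosa stages also changed with age, and its part in the granulosa-like ratio was not tested. The theca-like ratio rests on 10 and 29 UMIs and the blood endothelial-like ratio on 12 and 24 UMIs at 2 and 5 wk, as against 1770 and 2228 UMIs in stromal-like cells. The intervals of the theca-like levels overlapped, at 2.15 to 8.26 CPM at 2 wk and 1.48 to 3.17 CPM at 5 wk. At 6 wk the theca-like level was above that at 2 wk, at 10.5 against 4.49 CPM.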

How the results depend on the processing

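Counts of the 10 genes past 2-fold were kept within 1.5 times of the reported count in most alternatives. Antral against secondary cells went from 1 to 0 with all variable genes in the clustering, with size factors or with a minimum of 100 UMIs, the gene lost being Kdr. Remodeling against antral cells went from 3 to 1 with all variable genes or at a resolution of 0.6, with Pdgfrb and Vegfc lost. For 5 wk against 2 wk, granulosa-like cells went from 4 to 7 at a fold of 1.5. Theca-like cells went from 2 to 1 with all variable genes, stricter cells, a resolution of 0.6, size factors or a minimum of 100 UMIs, with Pdgfrb lost each time, and to 6 without a minimum. Pericyte-like cells went from 2 to 0 at a minimum of 100 UMIs. Blood endothelial-like cells went from 2 to 0 with the mean CPM of each cell, a minimum of 100 UMIs or 3 wk in place of 2 wk, and to 6 at a fold of 1.5. With 6 wk in place of 5 wk, chosen after seeing the data, stromal-like cells went from 3 to 6 and blood endothelial-like cells from 2 to 4. The rule that a group with 0 UMIs cannot be the higher one was also added then. Where a higher minimum or fold moved a count its construction is the cause, and otherwise the cause was not tested. Leaving out 1 library gave 5 to 6 genes for granulosa-like against stromal-like cells, with Flt4 added without 3 wk, 3 to 4 for theca-like against stromal-like cells, with Flt1 added without 5 wk, and 8 to 9 for pericyte-like against blood endothelial-like cells, with Angpt2 added without 3 wk. Stricter cells removed Angpt1 from the last of these. Flt1 had 0 UMIs in theca-like cells at 2, 4 and 6 wk. It was counted as higher there only through the level set for 0. Of 638 alternative values of the 58 log2 ratios between classes, 630 moved by less than the spread over libraries, 8 moved by more and 0 changed sign while past 2-fold. Leaving out 1 library cannot move a mean by more than this spread. Those alternatives were therefore among the 630 by construction, and the spread is one across ages. Comparisons between classes were made within each library throughout. Between ages, no paired analysis was possible because each age has 1 library. Depth limits the lymphatic endothelial values, with 14 cells at 6 wk, where 3 UMIs equal 23.2 CPM, and the remodeling values at 2 and 3 wk, with 45 and 84 cells.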

Other observations

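Further genes of the pathway differed between the ages in ways not described above. In granulosa-like cells, 5 of 27 tested further genes were past 2-fold higher at 5 wk than at 2 wk and 5 were lower, beside 16.1% of all tested genes in either direction. Ndufa4l2 was at 3.78, 11.9, 15.3 and 12.8 times its 2 wk level at 3, 4, 5 and 6 wk, and Ndrg1 at 0.919, 3.52, 2.93 and 2.58 times, while Sparc and Serpinf1, both secreted inhibitors of vessel growth, were among those lower. In blood endothelial-like cells Esm1, a gene of endothelial tip cells, and Vash1 were higher at 5 wk, and Pdgfc, Pdgfra and Serpinf1 were lower, beside 12.8% of all tested genes past 2-fold. All of these ratios share the 2 wk library, and the part of the changed mix of stages in the granulosa-like ratios was not tested.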
